A study of Homo sapiens with 64 samples.

Results

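Budesonide and formoterol, both inhaled for asthma, were set directly against each other 2 h after they were added to BEAS-2B, a line derived from human bronchial epithelium. Members were the 4 arrays labelled budesonide at 2 h and the 4 labelled formoterol at 2 h, 8 of the 64 arrays of the series. Arrays of cells given both drugs were not among them. Budesonide was given at 100 nM and formoterol at 10 nM, each alone. Cells of every group, untreated ones included, had been kept without serum overnight. The 4 untreated arrays at 2 h gave each drug's own change, and 4 arrays of cells given both drugs at 2 h are quoted for levels in places. In the series as a whole, untreated cells and cells given either drug or both were collected after 1, 2, 6 and 18 h. Each of these 16 groups had 4 arrays, which the series' text calls independent determinations. What separated the determinations is not stated, so p-values measure the spread between these arrays. With 1 dose of each drug, drug and dose cannot be told apart.

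Budesonide is a glucocorticoid. It binds the glucocorticoid receptor NR3C1, a transcription factor that enters the nucleus, binds glucocorticoid response elements, raises genes such as TSC22D3 and lowers many inflammatory genes. Formoterol is a long-acting bronchodilator of the beta-agonist class. Its signal runs through the G protein Gs and adenylyl cyclase to raise cyclic AMP, which activates protein kinase A. The kinase phosphorylates CREB, a transcription factor that binds cyclic AMP response elements and is known for fast, short-lived induction of genes such as the NR4A nuclear receptors.

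Levels are log2 values per probe set from RMA, which corrects background, normalizes arrays and summarises probes. A difference is budesonide minus formoterol on that log2 scale unless stated, ± the SE from limma over n = 4 arrays a group. A gene was called at a Benjamini-Hochberg adjusted p under 0.05 over the 18132 genes tested, and a gene said below to be higher, to rise or to fall was called. Levels cannot be compared between probe sets, only between arrays. The array medians at 2 h lay between 4.87 and 4.92. Group means under 3.02, the lower quartile over all arrays and probe sets, were treated as near background, as a rough guide. A difference from such a mean is a lower bound. A gene was read from its brightest probe set. With all probe sets of a gene averaged instead, the 90 differences between the drugs that were called among genes examined one by one kept their direction and call, and 24 of them became smaller by more than 1.5 times. Of 15 epithelial markers tested, 10 lay at or above the median of all values, 4.90, in each of the 3 groups, and EPCAM lay below 3.02. Of 9 leukocyte markers, 5, PTPRC and CD3D among them, lay below 3.02 in all 3 groups. So did 2 of 7 endothelial markers and 3 of 11 fibroblast and smooth muscle markers. Of those 11, 4 lay at or above 4.90 in untreated cells, 5 with budesonide and 4 with formoterol. No member of the epithelial, leukocyte, endothelial or fibroblast lists was called between the drugs by limma, where 6.08% of all genes were. Lists this short cannot be set apart from that share by having no called member. The unadjusted p by limma was under 0.05 in 4 of 15, 0 of 9, 1 of 7 and 2 of 11. The share of all genes under that unadjusted p was not counted. The 3′ minus 5′ difference of the beta-actin control probe sets, a measure of RNA quality, averaged 1.02 with budesonide, 1.09 with formoterol and 1.07 in untreated cells. In cells given both drugs it averaged 1.27, and its part in the levels quoted for them was not tested.

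The drugs left the cells with different transcriptomes at 2 h. By limma, 1102 genes differed between them (6.08% of those tested). Of these, 420 were higher with budesonide (2.32%) and 682 were higher with formoterol (3.76%), with median sizes of 0.58 and 0.55. At least 2-fold differences were found for 242 of them (1.33%), 91 higher with budesonide and 151 higher with formoterol, and 63 were at least 4-fold apart. The 4 arrays of one drug lay wholly above those of the other for 1508 genes (8.32%). That held for 90 of the 91 and 150 of the 151 genes called at 2-fold or more. Those genes were selected for their difference in these same arrays, which makes such separation likely, so the counts are a description. With replicate numbers blocked within each time, 1894 genes were called in place of 1102, and the number at least 2-fold apart stayed at 242. The block cannot change a difference, because every group holds the same replicate numbers, so that unchanged number tests little. Against untreated cells, 715 genes changed with budesonide (3.94%) and 834 with formoterol (4.6%), and under the same block 1379 and 1637. These comparisons share their untreated arrays with each other and their drug arrays with the direct one, so their values stand as context. RNA came from whole cultures, in which fewer cells expressing a gene and less RNA per cell cannot be told apart.

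**Figure D1:**
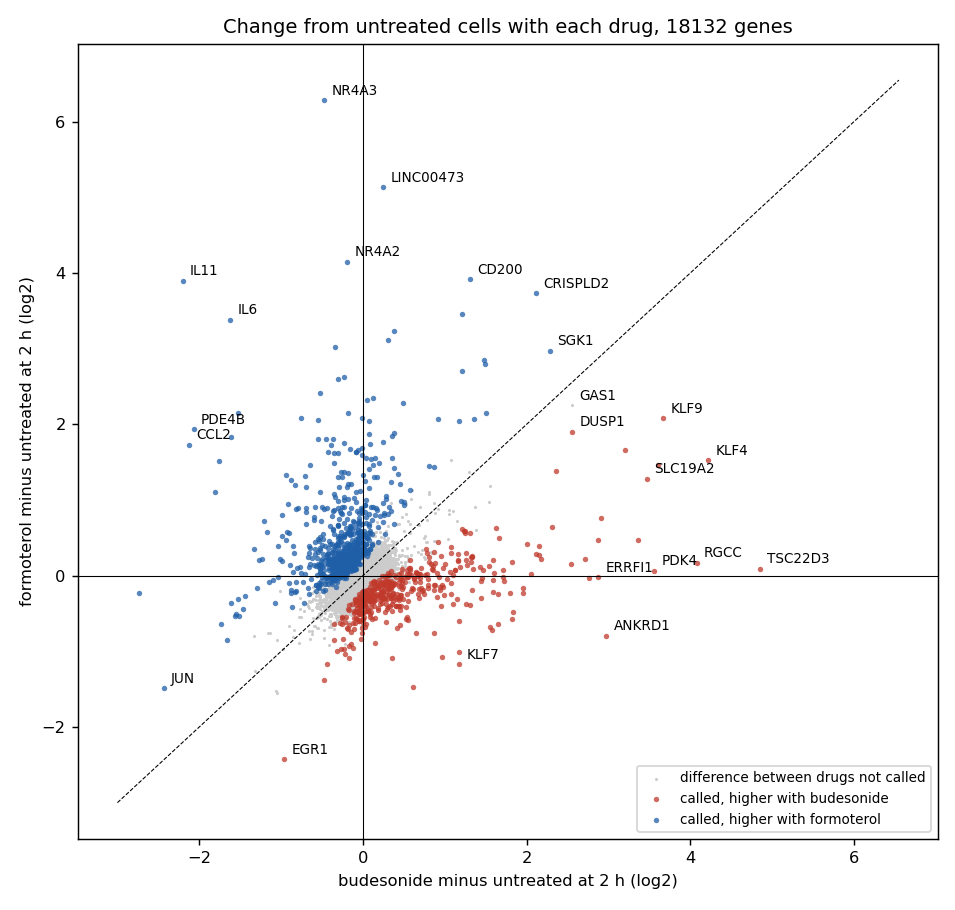
Change from untreated cells at 2 h with budesonide (x axis, log2) and with formoterol (y axis, log2), 1 point per gene. Red and blue points were called higher with budesonide (420) and with formoterol (682), grey points were not called, and the dashed line marks equal change. Both axes use the same untreated arrays. NR4A3 and LINC00473 lie high near the vertical axis, NR4A3 to its left and LINC00473 to its right. TSC22D3 lies far right near the horizontal axis, and SGK1, GAS1 and DUSP1 lie close to the dashed line.

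Of the 12 genes furthest above formoterol with budesonide, 8 had no called change with formoterol, whose values ran from −0.03 to 0.47. TSC22D3, the gene of the anti-inflammatory protein GILZ, read 11.4, 11.5, 11.3 and 11.4 in the budesonide arrays. It read 6.57, 6.71, 6.51 and 6.75 with formoterol and 6.49, 6.48, 6.44 and 6.77 untreated. All 4 budesonide arrays thus lay far above the other 8, which overlapped. The drugs differed by 4.76 ± 0.11 (27.2-fold, adjusted p = 4.87e-42 by limma), with a change from untreated of 4.86 ± 0.11 with budesonide and 0.09 ± 0.11 with formoterol. RGCC, a regulator of the cell cycle, read 8.45, 8.97, 8.72 and 8.65 with budesonide against 4.69, 5.07, 4.81 and 4.61 with formoterol, and 4.38 to 4.80 untreated. The drug groups stood 3.90 ± 0.18 apart with no overlap. PDK4, the kinase that shuts down pyruvate dehydrogenase and so sugar oxidation, read 6.97, 7.11, 5.83 and 5.07 with budesonide and 2.50, 3.06, 2.39 and 3.06 with formoterol. Its formoterol and untreated means were below 3.02, and its budesonide arrays were the most scattered of these 3 genes. The measured difference of 3.49 ± 0.39 is therefore a lower bound for this probe set only, and the other probe set of PDK4 gave 0.61.

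The remaining genes on this side were between 2.39 and 2.89 apart, leaving out ANKRD1 and KLF4, described further on. ERRFI1, a feedback inhibitor of the epidermal growth factor receptor, was 2.89 ± 0.12 higher with budesonide than with formoterol, and its formoterol change of −0.02 ± 0.12 was not called. NFKBIA, the inhibitor that holds NF-kappaB in the cytoplasm, was 2.49 ± 0.14 higher and read 9.68 to 10.3 with budesonide, 7.30 to 7.86 with formoterol and 7.06 to 7.67 untreated. Its formoterol and untreated arrays overlapped, and its 3 probe sets gave 2.37 to 2.52. The metallothionein MT1X, a binder of zinc and copper, was 2.39 ± 0.15 higher. THBD, the anticoagulant receptor thrombomodulin, was 2.40 ± 0.14 higher. HS3ST1, a heparan sulfate sulfotransferase, was 2.89 ± 0.26 higher, with an untreated mean of 3.01, and 1.69 higher with its probe sets averaged. FGD4, an exchange factor for the GTPase CDC42, was 2.80 ± 0.31 higher, with budesonide arrays at 7.86, 7.73, 5.88 and 6.14. Its arrays numbered 1 and 2 thus stood apart from those numbered 3 and 4 in the budesonide group, and all 4 lay above the formoterol arrays, at 3.74 to 4.58. PTGER4, the Gs-coupled EP4 receptor for prostaglandin E2, was 2.40 ± 0.15 higher with budesonide, which raised it by 1.82 ± 0.15. Its change with formoterol was −0.58 ± 0.15 (adjusted p = 0.012 by limma), a call that was lost with its probe sets averaged (−0.35), with fewer groups in the fit, without formoterol replicate 4 (−0.41), without untreated replicate 2 or 3 (−0.54 and −0.50) and without replicate 1 or 2 of all groups (−0.51 and −0.63).

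On the other side stood genes that formoterol raised, by 1.52 to 6.28 among the 12 furthest apart. NR4A3, an orphan nuclear receptor induced early after cyclic AMP rises, read 10.8, 10.6, 10.9 and 10.7 with formoterol and 4.05, 4.16, 3.70 and 4.11 with budesonide. Untreated arrays read 4.19, 4.64, 4.54 and 4.53, just above the budesonide ones. NR4A3 was 6.76 ± 0.16 higher with formoterol (108-fold, adjusted p = 1.01e-41 by limma), the largest difference of any gene tested. Its other probe sets gave differences down to 0.41 in the same direction, and their average was 4.05. Its relative NR4A2 read 8.58, 6.91, 8.99 and 7.0 with formoterol and 3.35 to 3.74 with budesonide, a difference of 4.34 ± 0.30. The formoterol arrays numbered 1 and 3 were the high pair, and the beta-actin 3′ minus 5′ difference also lay higher in arrays so numbered at 2 h (1.30 to 1.61) than in those numbered 2 and 4 (0.50 to 1.11). The part of RNA quality in that spread was not tested. NR4A1, the third member of the family, was 2.81 ± 0.31 higher with formoterol, whose arrays ran from 7.61 to 10.5, and 1.36 higher with its probe sets averaged. LINC00473, a long non-coding RNA known to follow CREB, read 9.24, 9.37, 9.96 and 9.77 with formoterol and 4.49, 4.48, 4.90 and 4.92 with budesonide. Untreated arrays at 4.14 to 4.78 overlapped with the budesonide ones, and the drugs stood 4.89 ± 0.20 apart, or 2.98 with its probe sets averaged. ZNF331, a zinc finger protein, was 3.37 ± 0.15 higher with formoterol, and its 4 probe sets gave 2.58 to 3.37. DEPDC7, a DEP domain protein, was 2.94 ± 0.12 higher, with 3 of its 4 probe sets running the same way and an average over them of 1.63.

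**Figure D2:**
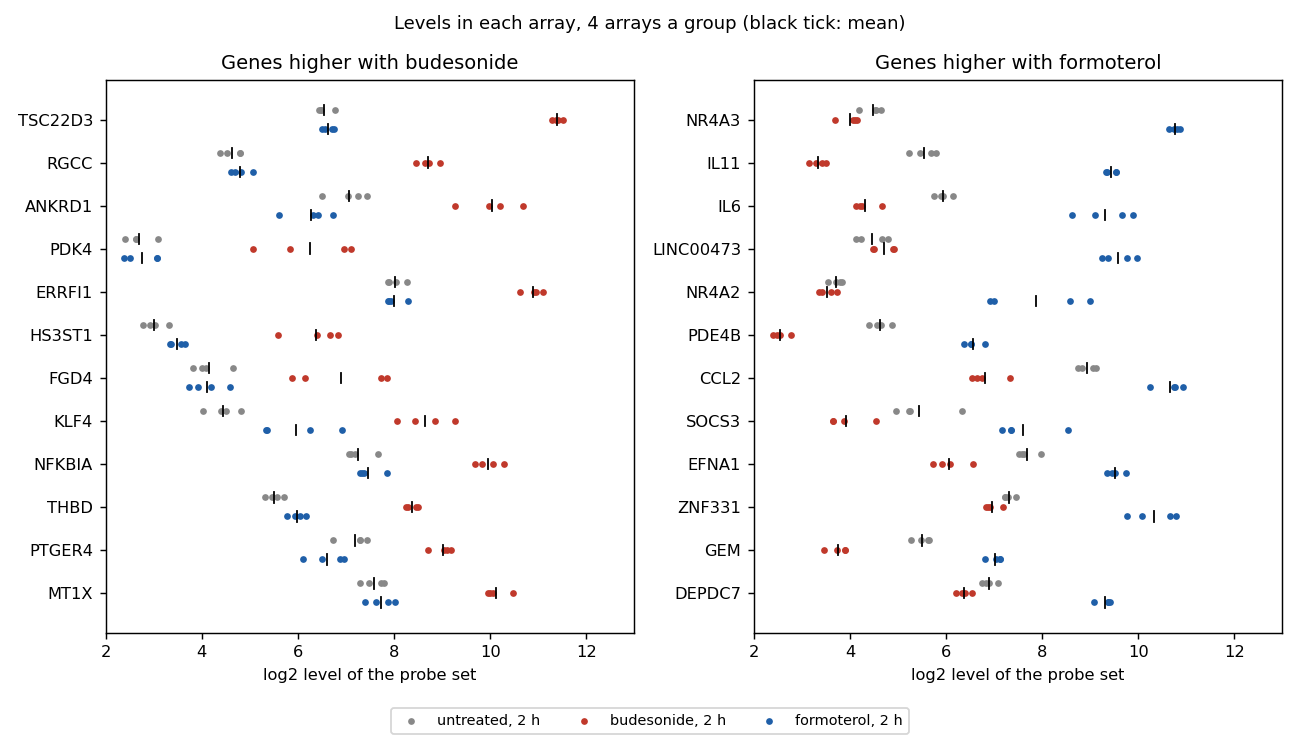
Log2 level of each array for the 12 genes highest with budesonide (left) and the 12 highest with formoterol (right), with untreated arrays in grey, budesonide in red, formoterol in blue and a black tick at each group mean of 4 arrays. In all 24 genes, which were chosen for it, the red and blue points do not overlap. TSC22D3 has red points at 11.3 to 11.5, and NR4A3 has blue points at 10.6 to 10.9.

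The promoters of some of these genes are shown because a letter pattern for the CREB element can be read in them. Sequences are 300-base RefSeq windows on GRCh38.p14, mostly upstream of an annotated start, 5′ to 3′ on the strand of the gene, with each TGACG or its reverse complement CGTCA in capitals. NR4A3 (chr9:99821635-99821934, plus strand) holds 4 matches, LINC00473 (chr6:165987990-165988289, minus strand) 2 and IL6 (chr7:22726950-22727249, plus strand) 2. From the budesonide side, RGCC (chr13:41457300-41457599, plus strand) holds 1 match and ERRFI1 (chr1:8026260-8026559, minus strand) none. Of the genes named here and below for the size or the opposition of their gap, at least 1 window held a match in 6 of the 10 higher with formoterol and in 5 of the 17 higher with budesonide that have one. The shown windows are not typical of every gene: TSC22D3 and KLF4 have a window with 2 matches, and IL11, PDE4B, EFNA1 and DEPDC7 have none.
NR4A3: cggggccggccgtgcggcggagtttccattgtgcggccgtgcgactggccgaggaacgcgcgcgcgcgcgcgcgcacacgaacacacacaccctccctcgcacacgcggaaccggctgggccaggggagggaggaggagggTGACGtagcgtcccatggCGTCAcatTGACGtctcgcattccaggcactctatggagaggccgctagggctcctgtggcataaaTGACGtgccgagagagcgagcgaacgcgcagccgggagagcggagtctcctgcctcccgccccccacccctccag
LINC00473: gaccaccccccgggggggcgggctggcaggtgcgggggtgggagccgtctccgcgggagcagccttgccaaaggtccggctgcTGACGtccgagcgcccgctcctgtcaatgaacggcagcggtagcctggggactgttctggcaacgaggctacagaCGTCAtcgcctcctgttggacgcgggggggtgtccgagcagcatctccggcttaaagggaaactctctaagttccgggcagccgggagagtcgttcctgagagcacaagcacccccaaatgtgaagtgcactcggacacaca
IL6: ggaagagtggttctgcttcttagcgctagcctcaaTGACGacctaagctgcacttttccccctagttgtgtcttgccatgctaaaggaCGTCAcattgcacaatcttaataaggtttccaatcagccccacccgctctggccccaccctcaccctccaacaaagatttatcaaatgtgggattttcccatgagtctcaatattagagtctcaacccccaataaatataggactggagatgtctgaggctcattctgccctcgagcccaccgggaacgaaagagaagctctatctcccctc
RGCC: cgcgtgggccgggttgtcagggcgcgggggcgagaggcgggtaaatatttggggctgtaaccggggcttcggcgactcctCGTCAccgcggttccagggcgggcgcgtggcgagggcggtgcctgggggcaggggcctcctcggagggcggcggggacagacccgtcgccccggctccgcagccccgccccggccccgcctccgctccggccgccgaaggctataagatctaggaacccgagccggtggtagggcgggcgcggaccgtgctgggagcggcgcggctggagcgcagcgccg
ERRFI1: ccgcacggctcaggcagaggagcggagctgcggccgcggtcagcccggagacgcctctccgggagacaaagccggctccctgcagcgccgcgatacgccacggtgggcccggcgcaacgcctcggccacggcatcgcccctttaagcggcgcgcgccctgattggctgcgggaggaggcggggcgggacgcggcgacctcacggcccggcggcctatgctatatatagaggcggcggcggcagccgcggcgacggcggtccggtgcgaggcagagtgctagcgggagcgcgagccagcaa

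The core TGACG, on either strand, occurred in 24.55% of all 35116 promoter windows and in at least 1 window of 34.98% of the 14425 tested genes with one. It occurred in 60 of the 117 genes with a window that were at least 2-fold higher with formoterol (51.28%) and in 22 of the 78 that were at least 2-fold higher with budesonide (28.21%). Genes have 1 or more windows, on average 1.414 over the tested genes, 1.769 on the formoterol side and 1.679 on the budesonide side. With 1 window per gene the shares were 29.67%, 39.32% and 17.95%. The full palindrome TGACGTCA, which contains the core, occurred in 3.106% of the tested genes and in 1.848% of all windows. It was found in 11 of the 117 formoterol-side genes (9.402%) and in none of the 78 budesonide-side genes. With 1 window per gene it was found in 6 of the 117 (5.128%), against 2.662% of the tested genes. One of the 11 is CREM, which encodes a CREB-family factor and was 1.10 ± 0.11 higher with formoterol. A strict and a loose spelling of the palindromic glucocorticoid response element were searched on both strands too. The strict one was found in 1 of all 35116 windows, and the loose one in 0.39% of windows and in 1 gene of either side. No match in such a window says only that these letters are not in it.

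Some genes changed in opposite directions with the drugs, with untreated cells in between. Among the genes that met the naming conditions, 44 rose with formoterol and fell with budesonide, and 20 rose with budesonide and fell with formoterol. IL11, a cytokine of the IL-6 family, read 9.34, 9.34, 9.54 and 9.54 with formoterol, 5.23, 5.69, 5.46 and 5.79 untreated and 3.42, 3.29, 3.15 and 3.49 with budesonide. The 3 groups did not overlap. IL11 thus rose by 3.90 ± 0.20 with formoterol, fell by 2.20 ± 0.20 with budesonide and stood 6.10 ± 0.20 (68.7-fold) apart between the drugs. With its probe sets averaged, IL11 changed by −1.08 with budesonide, and budesonide minus formoterol was −4.14. IL6, the acute-phase cytokine whose promoter is printed above, read 9.65, 9.10, 9.88 and 8.63 with formoterol, 5.75 to 6.14 untreated and 4.66, 4.25, 4.21 and 4.12 with budesonide. It stood 5.01 ± 0.19 apart, though its other probe set gave a difference of 0.39. CCL2, which draws monocytes, read 10.3, 10.8, 10.9 and 10.7 with formoterol, 8.74 to 9.13 untreated and 6.76, 6.54, 7.32 and 6.65 with budesonide. It rose by 1.73 ± 0.16 with formoterol and fell by 2.12 ± 0.16 with budesonide.

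The naming rule gave 5 more opposed genes that formoterol raised. PDE4B, a phosphodiesterase that breaks down cyclic AMP, read 6.37 to 6.81 with formoterol, 4.40 to 4.87 untreated and 2.40 to 2.76 with budesonide, the last with a mean below 3.02. The drugs stood 4.0 ± 0.22 apart for PDE4B, a lower bound for this brightest probe set only. Its 4 probe sets gave 0.34 to 4.0, and budesonide minus formoterol was −1.41 with them averaged. SOCS3, an inhibitor of cytokine receptor signalling, stood 3.67 ± 0.23 apart, with a rise of 2.15 and a fall of 1.52, and its other probe set gave 0.20. EFNA1, a ligand of EPH receptors, stood 3.45 ± 0.19 apart, and GEM, a small GTPase of the RAS family, 3.28 ± 0.19. PLK2, a stress-induced polo-like kinase, read 9.99 to 10.6 with formoterol, 9.0 to 9.42 untreated and 6.96 to 7.78 with budesonide. It fell by 1.81 ± 0.16 with budesonide and rose by 1.11 ± 0.16 with formoterol, and its 4 probe sets gave 2.54 to 3.15 between the drugs.

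In the other orientation, budesonide raised and formoterol lowered the 8 genes that follow. KLF7, a Kruppel-like transcription factor, read 9.27, 9.07, 8.62 and 8.73 with budesonide, 7.90, 7.86, 7.68 and 7.55 untreated and 6.92, 6.57, 6.35 and 6.46 with formoterol. Its 3 groups did not overlap, and it rose by 1.18 ± 0.12 with budesonide and fell by 1.17 ± 0.12 with formoterol. CDC42EP3, an effector of CDC42 that acts on septins and actin, read 10.9 to 11.0 with budesonide, 9.70 to 9.90 untreated and 8.68 to 8.93 with formoterol, a difference of 2.18 ± 0.08 between the drugs. HMGA2, a chromatin protein that bends DNA, stood 2.04 ± 0.18 apart, with probe sets from 0.02 to 2.04. When all its probe sets were averaged, its change with formoterol was −0.19 and not called. RUNX2, a transcription factor of bone formation, stood 1.62 ± 0.15 apart, with probe sets from 0.04 to 1.62 and an average of 0.83. SHROOM3, an actin-binding protein of epithelial folding, stood 1.41 ± 0.09 apart, and 5 of its 6 probe sets ran that way, with an average of 0.68. PCDH18, a protocadherin, stood 2.29 ± 0.17 apart and DACT1, which binds Dishevelled in WNT signalling, 2.24 ± 0.16. With probe sets averaged these differences were 1.49 each. The falls of both with formoterol, by 0.71 and 0.68, lost their calls without replicate 1 of all groups, at −0.67 and −0.63. That of DACT1 was −0.34 and not called (adjusted p = 0.123 by limma) with probe sets averaged, and that of PCDH18 lost its call with fewer groups in the fit (adjusted p = 0.0624 and 0.079 by limma). ANKRD1, an ankyrin repeat protein and transcriptional cofactor, read 10.7, 10.2, 9.27 and 9.98 with budesonide, 7.24, 7.04, 6.50 and 7.44 untreated and 6.74, 6.41, 5.60 and 6.31 with formoterol. The drugs stood 3.77 ± 0.20 apart, while formoterol and untreated arrays overlapped. Its formoterol change of −0.79 ± 0.20 lost its call without formoterol replicate 3 (−0.57) or untreated replicate 4 (−0.66), without replicate 2 or 4 of all groups (−0.85 and −0.68) and with fewer groups in the fit (adjusted p = 0.197 and 0.134 by limma).

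**Figure D3:**
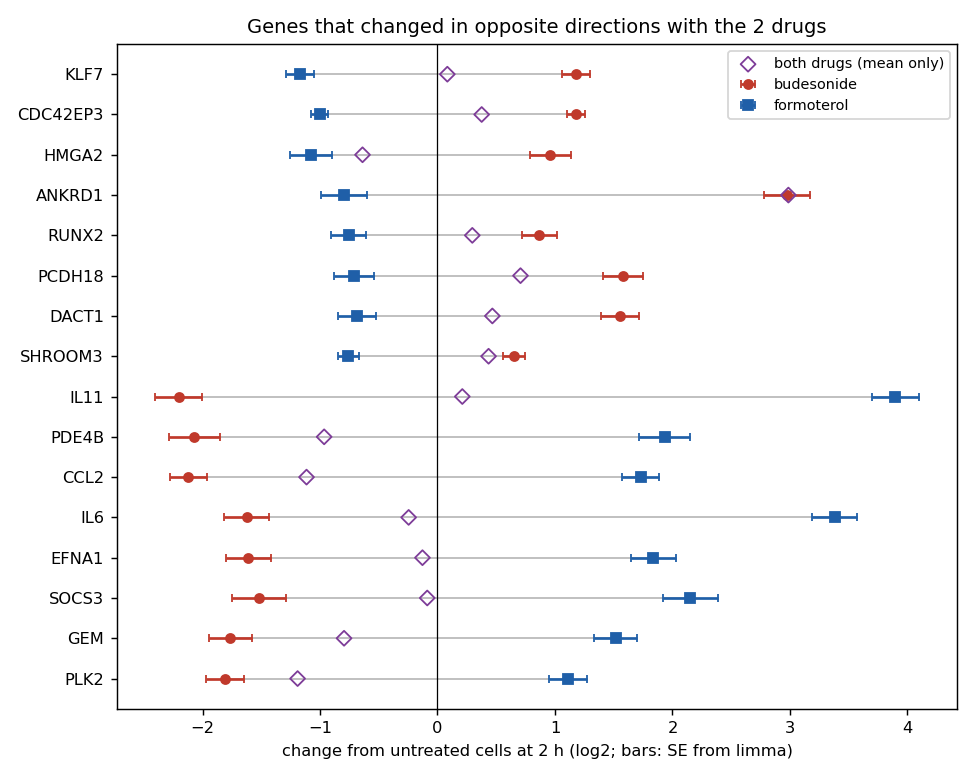
Change from untreated cells at 2 h (x axis, log2, bars are SE from limma, 4 arrays a group) for the 16 genes named for changes in opposite directions, with budesonide in red and formoterol in blue, and open diamonds for cells given both. Red and blue lie on opposite sides of 0 because the genes were chosen for it. The diamonds lie between the drugs in 15 of the 16 genes, and that of ANKRD1 lies on the red point.

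Cells given both drugs at 2 h were not used to choose these 16 genes. Their mean lay between the means of the single drugs in 15 of the 16, the exception being ANKRD1, at 10.04 with both and 10.03 with budesonide. It lay nearer the budesonide mean in 15, the exception being HMGA2, at 6.08 with both, 7.68 with budesonide and 5.64 with formoterol. For IL11 the combination arrays read 5.79, 5.15, 5.95 and 6.13, around the untreated level. For PLK2 they read 7.56 to 8.36, below every untreated array.

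The drugs also moved some genes in the same direction and still left them apart. Among genes meeting the naming conditions, budesonide went further in 14 and formoterol in 9. KLF4, a transcription factor of epithelial differentiation, read 8.85, 8.43, 9.27 and 8.06 with budesonide, 6.24, 5.35, 6.91 and 5.34 with formoterol and 4.02 to 4.81 untreated. Both drugs lifted all their arrays above the untreated ones, by 4.22 ± 0.24 with budesonide and 1.52 ± 0.24 with formoterol. SLC19A2, a thiamine transporter, rose by 3.47 and 1.28 with the same order, and CEBPB, a transcription factor of the C/EBP family, by 2.91 and 0.76. CD200, a surface protein that restrains myeloid cells, read 9.03, 9.20, 8.86 and 8.97 with formoterol, 6.60, 6.71, 6.00 and 6.28 with budesonide and 4.92 to 5.52 untreated. It rose by 3.92 ± 0.18 with formoterol and 1.30 ± 0.18 with budesonide. FLRT3, an adhesion protein, was 2.24 ± 0.21 higher with formoterol, and RHOB, a small GTPase of the endosome, 1.50 ± 0.17 higher (0.51 with its probe sets averaged). CRISPLD2, a secreted protein on the list of glucocorticoid-induced genes, rose by 3.73 ± 0.27 with formoterol and 2.12 ± 0.27 with budesonide. Only 3 of its 5 probe sets gave the same order of the drugs, and with all averaged the difference between them was 0.41 in place of 1.62.

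Both drugs raised some genes to levels within 2-fold of each other. GAS1, a growth-arrest protein at the cell surface, read 11.6, 11.6, 11.5 and 11.4 with budesonide, 11.5, 11.2, 11.3 and 11.0 with formoterol and 8.67 to 9.28 untreated. The drug arrays overlapped, and the difference of 0.31 ± 0.14 was not called (adjusted p = 0.28 by limma, 95% limits 0.03 to 0.58). It was called with the replicate block within each time (adjusted p = 0.037 by limma), not with the block over all times (adjusted p = 0.0515 by limma), and with all probe sets averaged (0.37, adjusted p = 0.00833). SGK1, a kinase controlling ion transport, read 11.1 to 11.4 with budesonide, 11.7 to 12.4 with formoterol and 8.71 to 9.13 untreated. It was 0.69 ± 0.12 higher with formoterol. DUSP1, the phosphatase that switches off p38 and JNK, was 0.66 ± 0.09 higher with budesonide after rises of 2.56 and 1.90. CITED4, a transcriptional coactivator, was 0.70 ± 0.11 higher with formoterol. FLVCR2 differed by 0.36 ± 0.20 (95% limits −0.03 to 0.76), a difference called with the replicate block within each time (adjusted p = 0.0289 by limma) and not without a block or with the block over all times, and only 1 of its 3 probe sets ran that way. SHISA2 differed by −0.08 ± 0.36 (95% limits −0.80 to 0.65). Its change from untreated was 1.30 with budesonide and 1.37 with formoterol. The first lost its call without budesonide replicate 1, 2 or 3 or untreated replicate 4 (1.03 to 1.27), the second without formoterol replicate 2 or 3 or untreated replicate 4 (1.10 to 1.25). Both also lost their calls without replicate 1, 2 or 3 of all groups (1.27 to 1.39).

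How the gap moved with time was read from the same drugs at 1, 6 and 18 h. Between 2 and 6 h the gap changed for 1116 genes by limma (6.15%), and for 2320 with the replicate block within each time and 1700 with the block over all times. Of the 32 genes named above for the size or the opposition of their 2 h gap, it changed in 21. It shrank in 17 and widened in 4, TSC22D3, RGCC, MT1X and CCL2. All 21 were called under both blocks too. KLF4 (−1.04, written as 6 h minus 2 h) and PDE4B (0.77) were not called without a block and were called under both. ANKRD1 (−0.46) and DACT1 (−0.55) were called only with the block within each time, and the gaps of these 4 genes were smaller at 6 h. The 2 h gap that chose these genes enters this test, so the count is a description. NR4A3 was 5.60 higher with formoterol at 1 h, 6.76 at 2 h, 2.08 at 6 h and 0.78 at 18 h. NR4A2 went from 4.34 at 2 h to 0.73 at 6 h and ZNF331 from 3.37 to 0.18. All 3 genes thus had smaller gaps at 6 h than at 2 h. LINC00473 differed by 4.89 at 2 h and 4.38 at 6 h, a change that was not called. CCL2 went the other way, 1.26 higher with formoterol at 1 h, 3.85 at 2 h and 4.95 at 6 h. TSC22D3 was 3.70, 4.76, 5.51 and 4.80 higher with budesonide at 1, 2, 6 and 18 h, and RGCC 2.65, 3.90, 5.62 and 5.02. With all probe sets averaged, the widening of TSC22D3 was 0.58 and not called, and that of MT1X (0.76) lost its call without formoterol replicate 2 at 2 h (0.67) or replicate 3 at 6 h (0.67), and without replicate 1, 3 or 4 of all groups (0.82, 0.68 and 0.76). HMGA2, RUNX2 and SHROOM3 differed by 0.08, −0.13 and 0.10 at 1 h and by 0.47, 0.15 and 0.30 at 6 h, values smaller than those of 2.04, 1.62 and 1.41 at 2 h. For HMGA2 the shrinkage of 1.57 was 0.27 and not called with all probe sets averaged. KLF7 followed a like course, at 0.70, 2.35, 0.93 and 0.09. Among genes further up with formoterol at 2 h, FLRT3 and CRISPLD2 were 1.84 and 1.46 higher with budesonide at 18 h.

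**Figure D4:**
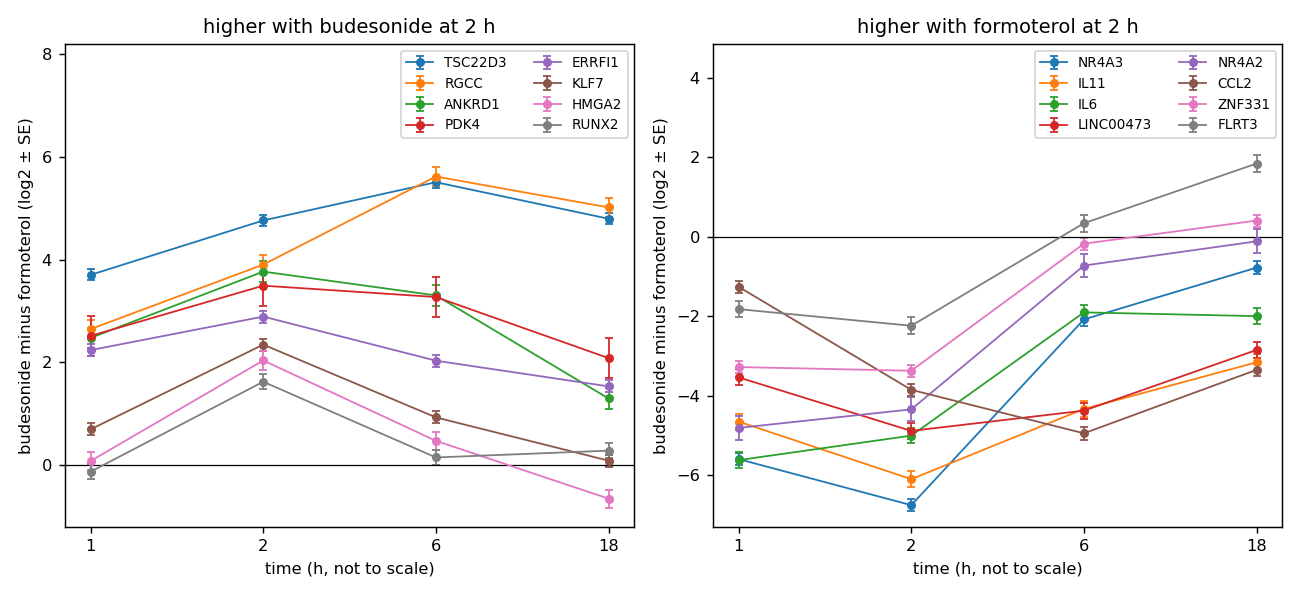
Budesonide minus formoterol (y axis, log2, bars are SE from limma, 4 arrays a group) at 1, 2, 6 and 18 h (x axis, not to scale) for 8 genes higher with budesonide at 2 h (left) and 8 higher with formoterol (right). TSC22D3 and RGCC peak at 6 h, at 5.51 and 5.62. NR4A3, NR4A2 and ZNF331 return toward 0 by 6 h, while CCL2 moves further from it, to −4.95.

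Known glucocorticoid targets and known CREB targets leaned to different sides of the direct comparison. The gene lists were chosen with earlier results of these data known, so their counts and medians are a description. Of 25 glucocorticoid-induced genes, 16 were higher with budesonide, 4 higher with formoterol and 5 not called, with a median difference of 1.17 against −0.005 over all genes tested. The called share was 80%, against 6.08% of all genes, the share that stands behind each list below too. Against untreated cells, 21 of these 25 genes rose with budesonide and 11 rose with formoterol. Of all 18132 genes, 306 and 419 did. FKBP5, a co-chaperone of the glucocorticoid receptor, was 1.65 ± 0.11 higher with budesonide, and BCL6, a transcriptional repressor, 1.66 ± 0.10. GLUL, glutamine synthetase, was 1.05 ± 0.10 higher (0.65 with its probe sets averaged), and DDIT4, an inhibitor of mTORC1, 1.54 ± 0.15 after rises with both drugs. RGS2, CRISPLD2, SGK1 and the transcription factor CEBPD (0.65 higher) were the 4 higher with formoterol. CEBPD lost its call without budesonide replicate 3 or 4 or formoterol replicate 1 or 2, at −0.62 to −0.51. RGS2, which limits signalling by Gq-coupled receptors, read 8.58 to 9.15 with budesonide, 9.77 to 10.5 with formoterol and 7.20 to 7.41 untreated. Of 20 cAMP and CREB-induced genes tested, 15 were higher with formoterol, 2 higher with budesonide and 3 not called, with a called share of 85% and a median of −1.41. PDE4D, a phosphodiesterase like PDE4B, was 2.85 ± 0.14 higher with formoterol, BDNF, a neurotrophin, 2.27 ± 0.13 and ATF3, a stress-induced transcription factor, 2.17 ± 0.12. With probe sets averaged, PDE4D was 1.49 and ATF3 0.82 higher. SCG2, a secretory granule protein, was 1.51 ± 0.18 higher. The clock gene PER1 and DUSP1 were the 2 higher with budesonide. For PER1 only 1 of 3 probe sets ran that way, and its difference was 2.14 from that one and 0.67 with all averaged. Several list members, IL6, RGS2 and DUSP1 among them, stand on more than 1 list.

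**Figure D5:**
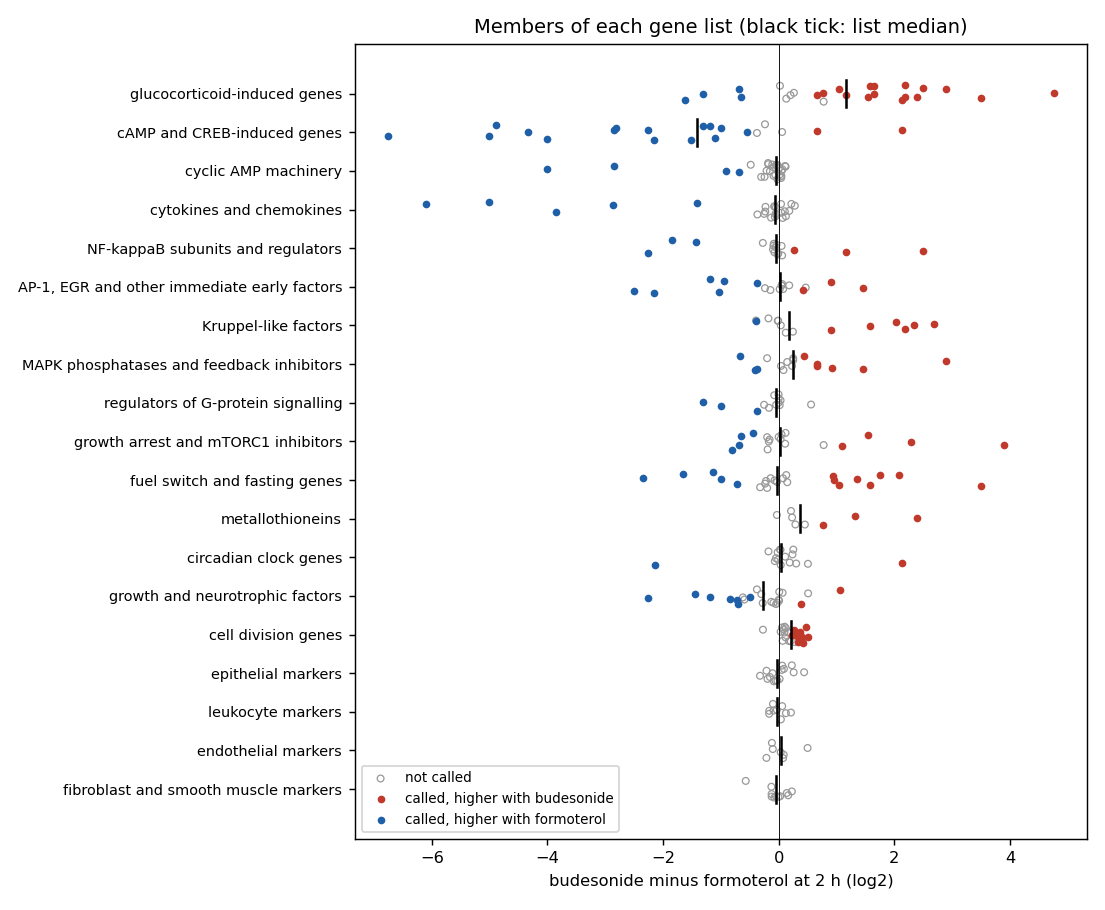
Budesonide minus formoterol at 2 h (x axis, log2) for every tested member of each gene list (rows), with called members filled in red (higher with budesonide) or blue (higher with formoterol), members not called in grey and a black tick at the list median. The glucocorticoid-induced list has its median at 1.17 and the cAMP and CREB-induced list at −1.41, and the 4 cell type marker lists hold no called member.

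Of 30 genes of the cyclic AMP machinery, 4 differed (13.3%), all higher with formoterol. These were PDE4B, PDE4D, the kinase anchor AKAP12 (0.91 ± 0.11 higher) and the kinase SIK2 (0.69 ± 0.10 higher). The median of this list, −0.05, lay near that of all genes. NR3C1, the gene of the glucocorticoid receptor, read 10.2, 9.88, 10.2 and 10.1 with budesonide, 10.5 to 10.7 untreated and 11.0 to 11.1 with formoterol. The 3 groups did not overlap. NR3C1 fell by 0.48 ± 0.08 with budesonide and rose by 0.48 ± 0.08 with formoterol, and all 10 of its probe sets gave a lower level with budesonide than with formoterol.

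The few inflammatory mediators that were called differed in one direction, and called NF-kappaB regulators in both. Of 25 cytokines and chemokines, 10 had means below 3.02 in all 3 groups, and 20 were not called. The other 5 differed (20%), all at least 2-fold higher with formoterol, and the list median was −0.07. They were IL11, IL6, CCL2, LIF and CXCL2, of which LIF, of the IL-6 family, was 1.41 (0.605 with its probe sets averaged) and CXCL2, an attractant of neutrophils, 2.86 ± 0.20 higher. CXCL2 read 6.05 to 7.03 with formoterol and 3.26 to 3.82 with budesonide, and untreated arrays at 3.51 to 4.01 overlapped with the latter. Of 17 NF-kappaB subunits and regulators, 6 differed (35.3%), 3 higher with each drug. TNFAIP3, the enzyme A20 that ends NF-kappaB signalling, was 1.17 higher with budesonide, as was NFKBIA above. On the formoterol side stood NFKBIZ, an atypical nuclear IkappaB protein (1.85 ± 0.12 higher), the subunit REL (1.44 ± 0.18 higher) and BCL3 (2.26 ± 0.18 higher). Only 2 of the 4 probe sets of BCL3 ran that way, with an average of 0.53.

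Of 17 AP-1, EGR and other immediate early factors, 9 differed (52.9%), 6 higher with formoterol and 3 with budesonide, where 682 and 420 of all genes were. IER3, an early response gene of cell survival, read 6.35 to 6.85 with budesonide, 8.89 to 9.19 with formoterol and 9.05 to 9.40 untreated. It fell by 2.74 ± 0.13 with budesonide. JUN fell with both drugs, by 2.44 with budesonide and 1.49 with formoterol, and EGR1 fell with both in the other order, by 0.96 and 2.43. One of the 6 probe sets of EGR1 ran against that order, and the difference between the drugs was 1.46 from the brightest and 0.68 with all averaged. Of 14 Kruppel-like factors, 7 differed (50%), 6 higher with budesonide and 1 with formoterol, with a median of 0.18. Beside KLF4 and KLF7 these included KLF15, a regulator of amino acid and glucose use (2.19 ± 0.14 higher), KLF6 (2.03 ± 0.21) and KLF9 (1.59 ± 0.14). KLF9 rose with both drugs, by 3.67 and 2.08.

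Feedback inhibitors, growth arrest genes and fuel genes were mixed. Of 16 MAPK phosphatases and feedback inhibitors, 9 differed (56.25%), of which 6 were higher with budesonide and 3 with formoterol. SPRY1, an inhibitor of receptor tyrosine kinase signalling, was 1.46 ± 0.11 higher with budesonide and DUSP6, an ERK phosphatase, 0.91 ± 0.16, while DUSP4 was 0.67 ± 0.09 higher with formoterol. Of 18 growth arrest and mTORC1 inhibitor genes, 8 differed (44.4%), 4 higher with each drug. GADD45A, a stress sensor that slows the cell cycle, read 12 to 12.2 with budesonide, 10.3 to 10.6 untreated and 9.70 to 9.88 with formoterol. It rose by 1.65 ± 0.09 with budesonide and fell by 0.63 ± 0.09 with formoterol. The antiproliferative genes BTG1 and TOB1 were 0.82 ± 0.11 and 0.68 ± 0.13 higher with formoterol. Of 23 fuel switch and fasting genes, 13 differed (56.5%), of which 8 were higher with budesonide and 5 with formoterol. Beside PDK4, budesonide left IRS2, an adaptor of the insulin receptor, 1.76 ± 0.11 higher. FOXO1, a transcription factor held back by insulin signalling, was 1.58 higher. TXNIP, an arrestin that limits glucose uptake, was 2.09 ± 0.16 higher, reading 10.6 to 11.3 with budesonide and 8.37 to 9.31 with formoterol, where it fell by 1.47 ± 0.16 from untreated. Among its arrestin relatives, ARRDC2 was 0.96 ± 0.12 higher with budesonide and ARRDC3 2.35 ± 0.19 higher with formoterol. LPL, lipoprotein lipase, was 1.66 ± 0.18 higher with formoterol.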

How the data were processed

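Total RNA of 64 BEAS-2B cultures was labelled with biotin by Affymetrix procedures, per the labels. The deposited log2 values, 1 per probe set and array, were made by the authors with RMA, per the submitters' processing notes. Not given in the sources used here are the RMA version and whether 1 run took in all arrays. A joint run would hide a shift common to most genes. Precision is limited by the number of arrays.

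The platform annotation names 1 gene for 44994 of the 49395 probe sets, several for 1832 and none for 2569, and only the first were tested. A gene was read from its brightest probe set (highest mean over the 64 arrays), for 18132 genes, of which 11735 had a choice. limma 3.58.1, run in R 4.3.3 with data.table at version 1.17.8, fitted a mean for each of 16 groups, with 48 residual degrees of freedom and an intensity trend, and was tested on simulated data. Tests are two-sided, with Benjamini-Hochberg adjustment within each contrast. Plots were made in Python 3.11.15 (matplotlib 3.10.9).

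The naming rule took called genes at least 2-fold apart whose higher mean was at or above 4.90 and whose arrays did not overlap: 225 genes, 84 higher with budesonide and 141 with formoterol. From these came the 12 highest and 12 lowest differences, up to 8 genes changed in opposite directions in each orientation, and up to 4 that moved the same way with either drug further. Up to 6 of 9 genes moved alike (both changes 2-fold, 95% limits of the difference within 1) were added. This gave 44 genes; 37 had several probe sets, which ran one way in 33, the exceptions being DEPDC7, SHROOM3, CRISPLD2 and FLVCR2. Members of the gene lists and NR3C1 could be named too. The comparison, the lists and the rule were chosen with earlier results of these data known.

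Replicates are numbered 1 to 4 in the labels, with no word on what equal numbers have in common. Deviations of same-numbered arrays correlated at 0.34 to 0.57 between the drug groups at 2 h, and every pair exceeded 0.1 in both comparisons with untreated cells too, so numbers pair the arrays there; at 6 h the lowest was −0.02. The fit reported has no replicate term, and its SE and adjusted p treat the arrays as unpaired. Alternatives were the replicate block, array centring, repeated quantile normalization, no intensity trend, leaving out dim genes, averaging the probe sets of a gene, fewer arrays in the fit, and each array or replicate number left out.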

Additional observations from a re-analysis of the deposited data

Results flagged for a closer look

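In groups of 4 arrays at 2 h, 1 array stood far from the other 3 in 14 of 279 groups examined (93 named genes, 3 groups each), where chance sets apart about 1 in 20. Among untreated arrays these were TSC22D3 at 6.77 in replicate 4, PLK2 at 9.42 and PCDH18 at 5.27 in replicate 3, CD200 at 5.52 and TNFAIP3 at 5.71 in replicate 2, EGR1 at 7.02 in replicate 3 and TTK at 9.53 in replicate 4. Among formoterol arrays they were NFKBIA at 7.86 in replicate 1, SOCS3 at 8.53 in replicate 3, DEPDC7 at 9.08 in replicate 4 and MT2A, a metallothionein, at 12.8 in replicate 2. Among budesonide arrays they were GLUL at 11.6 in replicate 2, TXNIP at 10.6 in replicate 3 and GADD45B at 11.5 in replicate 1. None of the direct differences of these genes lost its call when any 1 array was left out.

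For 21 genes the difference between the drugs at 6 h departed from that at 2 h by the test of that change, in limma. Written as the 6 h difference minus the 2 h difference, it was 0.75 for TSC22D3, 1.71 for RGCC, 0.76 for MT1X and −1.09 for CCL2, whose gaps widened. Among genes higher with budesonide at 2 h whose gap shrank, it was −0.86 for ERRFI1, −0.80 for THBD, −1.10 for PTGER4, −1.42 for KLF7, −0.37 for CDC42EP3, −1.57 for HMGA2, −1.47 for RUNX2 and −1.11 for SHROOM3. Among genes higher with formoterol at 2 h whose gap shrank, it was 4.67 for NR4A3, 1.77 for IL11, 3.10 for IL6, 3.62 for NR4A2, 2.17 for SOCS3, 1.32 for EFNA1, 3.20 for ZNF331, 0.89 for GEM and 1.00 for DEPDC7. The call of GEM was lost without replicate 1 or 2 of all groups at 0.83 and 0.65. It was also lost without budesonide replicate 1 or formoterol replicate 2 at 2 h, or budesonide replicate 2 or 4 or formoterol replicate 2 at 6 h, at 0.78 to 0.86. The change for CDC42EP3 was −0.18 and not called with all probe sets averaged (adjusted p = 0.517 by limma). Its call was also lost with the compared arrays alone, without formoterol replicate 2 at 2 h, or budesonide replicate 1 or 2 or formoterol replicate 3 or 4 at 6 h, at −0.34 to −0.31, and without replicate 1 or 4 of all groups, at −0.32 and −0.35. With probe sets averaged, the changes were 1.65 for IL6, 1.27 for SOCS3, 0.62 for DEPDC7, −0.74 for RUNX2 and −0.40 for SHROOM3, all still called, and not called for TSC22D3 (0.58) and HMGA2 (−0.27). The call of THBD was lost without replicate 3 of all groups, at −0.76.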

How the results depend on the processing

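The direct difference of every named gene but SHISA2 kept its direction under every alternative run. The blocks and the fits without an intensity trend, without dim genes or with fewer groups leave a difference as it is. Those alternatives could therefore not reverse a direction. The direct difference of SHISA2, −0.08 and not called, was 0.20 without budesonide replicate 4 and 0.05 and 0.11 without formoterol replicate 2 and 3. Calls of the direct comparison changed only for GAS1 and FLVCR2, which were gained, and CEBPD, which was lost, as stated above, and also without replicate 1 (−0.70) or 4 (−0.66) of all groups for CEBPD. In the direct comparison 1102 genes became 1894 with the replicate block within each time and 725 with the compared arrays alone. Against untreated cells, 715 became 1379 and 436 with budesonide, and 834 became 1637 and 470 with formoterol. The change of the gap between 2 and 6 h was called for 1116 genes, 1700 with the block over all times and 2320 within each time. Leaving out 1 array gave 952 to 1076 genes for the direct comparison, 559 to 674 for budesonide, 664 to 813 for formoterol and 960 to 1126 for the change of the gap. Leaving out a replicate number gave 765 to 954, 394 to 558, 483 to 684 and 715 to 851, the lowest of each without replicate 2. With fewer arrays in a fit, fewer residual degrees of freedom remain; the causes were otherwise not tested. In the single-drug contrasts, a call of a named gene was lost in 47 pairs of gene and alternative with budesonide and 79 with formoterol, gained in 16 and 10, and kept on its side of the threshold in 1890 and 1864. The budesonide changes of NR4A3 (−0.47) and DEPDC7 (−0.52) were among those that crossed the threshold, NR4A3 gaining a call with the block within each time (−0.47), without replicate 1 (−0.58) and without untreated replicate 1 (−0.57), and DEPDC7 losing it with all probe sets averaged (−0.25) and without replicate 2 or 4 (−0.47 and −0.44). Averaging probe sets also shrank 22 of 75 called changes with budesonide, 24 of 71 with formoterol and 7 of 21 called changes of the gap by more than 1.5 times, with no change of direction, and 73, 63 and 18 remained called. Without detection calls, differences from groups near background are understated by an unknown amount.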

Other observations

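Of 24 genes of cell division tested, 9 were higher with budesonide than with formoterol (37.5%, against 6.08% of all genes called), 15 were not called and none was lower, with a median difference of 0.22 against −0.005 over all genes, and none reached 2-fold. Against untreated cells, 13 fell with formoterol and 2 with budesonide, where 415 and 409 of all 18132 genes fell. These counts share the untreated arrays. TTK, a kinase of the spindle checkpoint, read 9.10 to 9.30 with formoterol, 9.52 to 9.67 with budesonide and 9.53 to 9.66 untreated. It was 0.37 ± 0.06 higher with budesonide by limma, with no overlap between the drug arrays.

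Of 23 growth and neurotrophic factors, 9 differed (39.1%), of which 7 were higher with formoterol and 2 with budesonide. BMP4, a morphogen of the TGF-beta family, fell by 1.45 ± 0.10 with budesonide and was 1.18 ± 0.10 higher with formoterol than with budesonide. HBEGF, a ligand of the epidermal growth factor receptor, was 1.46 higher with formoterol. CCN2, a matricellular protein, was 1.07 ± 0.11 higher with budesonide. Of 8 metallothioneins 3 were higher with budesonide (37.5%) and none with formoterol, MT1X, MT1E (1.31 ± 0.11) and MT2A (0.76 ± 0.06). Of 13 regulators of G-protein signalling 3 differed (23.1%), all higher with formoterol, RGS2 and RGS3 (0.99 ± 0.09) among them, and only 2 of 4 probe sets of RGS3 ran that way, with an average of 0.37. RGS3 fell with both drugs, by 1.52 with budesonide and 0.53 with formoterol. Against untreated cells, 1 of the 13 rose and 3 fell with budesonide, and 1 rose and 1 fell with formoterol. Of 16 clock genes 2 differed (12.5%), PER1 higher with budesonide and BHLHE40, a repressor of the clock, 2.15 higher with formoterol.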
